A study of Mus musculus with 24 samples.

Results

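The genes described here are the 10 circadian clock genes Arntl, Clock, Npas2, Per1, Per2, Per3, Cry1, Dbp, Nr1d1 and Ciart in mouse liver. They were chosen by gene symbol among the 56205 gene rows of an RNA-seq count table. All 10 had a row, and 9 of them were among the 14109 genes that passed the filter on low counts; Npas2 did not. Whole livers of C57BL/6J mice of both sexes were sequenced, 12 after a control diet and 12 after a methionine-choline deficient (MCD) diet, each fed for 20 weeks. The MCD diet is a high-fat feed deficient in methionine and choline that is used as a model of steatohepatitis with fibrosis. No allele was altered in either group, and the age of these animals and the sex of each library were not given in the sources used here. The hour at which each liver was taken, the lighting schedule and the feeding state were not given either. Every animal was sampled once, so a lower level of a rhythmic gene and a shift of its daily peak cannot be told apart. The question put to the data was how the levels of the clock genes differed between the diets.

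The clock of a cell is a loop of transcription and repression. ARNTL (also called BMAL1) pairs with CLOCK, or with the related NPAS2, and binds E-box motifs to switch on the Per and Cry genes, whose proteins then return to repress the same pair. A second loop runs through NR1D1 (REV-ERB alpha), which represses Arntl, and ROR receptors, which activate it through the same RORE motif. DBP is a transcription factor driven by E-boxes that binds D-box motifs in output genes, and CIART (CHRONO) is a further repressor of the ARNTL complex. In rodent liver, feeding times reset this loop, and Arntl peaks in a phase of the day roughly opposite to that of Dbp and Nr1d1.

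The promoters were examined for the motifs through which these proteins act on each other. Windows from 250 bases before to 50 bases after each start site were available for 9 of the 10 genes (13 windows in all), from RefSeq on GRCm38.p6. Each motif was searched on both strands: the E-box CACGTG, the E-prime box CACGTT, the D-box TTATGTAA or TTACGTAA, the RORE core TAGGTCA and the cyclic AMP response element TGACGTCA. CACGTG and CACGTT differ in their last letter, so no match was counted under both names. Positions give the first base of a match on the strand of the gene. The stretches around the matches are shown, on the strand of the gene, because they hold the letters that clock proteins are known to recognise; capitals mark the matches.

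Ciart, chr3:95882252-95882374, minus strand, E-boxes at 116, 58 and 44 bases before the start:

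Ciart: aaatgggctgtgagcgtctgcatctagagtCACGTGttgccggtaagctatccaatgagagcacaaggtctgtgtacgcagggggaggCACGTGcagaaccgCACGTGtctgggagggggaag

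Cry1, chr10:85185079-85185163, minus strand, the E-prime box (read here as AACGTG, its reverse complement) at 79 and the E-box at 60 bases before the start:

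Cry1: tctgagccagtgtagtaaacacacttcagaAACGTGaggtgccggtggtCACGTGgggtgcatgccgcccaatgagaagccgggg

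Per1, chr11:69098753-69098818, plus strand, an E-box at 166 bases before the start:

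Per1: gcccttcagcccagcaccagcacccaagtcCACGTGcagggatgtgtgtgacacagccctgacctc

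Nr1d1, chr11:98775378-98775435, minus strand, the reverse complement of an E-prime box at 28 bases before the start:

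Nr1d1: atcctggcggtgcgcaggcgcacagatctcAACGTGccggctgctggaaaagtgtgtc

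Per3, chr4:151044786-151044900, minus strand, D-boxes at 205 and 158 bases before the start:

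Per3: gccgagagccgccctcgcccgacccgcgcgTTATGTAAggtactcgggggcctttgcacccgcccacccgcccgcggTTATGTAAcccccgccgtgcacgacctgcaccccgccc

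Arntl, chr7:113207533-113207555, plus strand, a RORE core 31 bases after the start, inside an annotated Arntl exon:

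Arntl: gcagaaagTAGGTCAgggacgga

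An E-box lay in the windows of 3 of the 9 genes (Ciart, Cry1 and Per1), where 11.6% of the 10530 tested genes with a window held one. The E-prime box lay in 2 of 9 (Cry1 and Nr1d1), against 6.2% of those genes. A D-box was found in Per3 alone, against 0.893%, and a RORE core in Arntl alone, against 2.47%. The cyclic AMP response element was found in 0 of 9, against 3.37%. The windows of Clock, Npas2 and Dbp held none of the letters searched for. A match describes these letters in this window and is not a measured binding site.

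Each library held between 16388650 and 24915175 counts. Levels are given as CPM, counts relative to a library total that had been scaled with TMM, a factor that balances the bulk of genes between libraries. The factors of the 2 diets did not overlap, lying between 0.642 and 0.973 in control and between 1.07 and 1.26 in MCD livers, and this bears on every fold change given here. The library labelled control replicate 12 stood apart: its factor was the lowest, and its median Pearson correlation across genes with the other control libraries was 0.919, against 0.952 to 0.968 for the other 11. Nothing in the labels said that libraries came from separate cages or litters, so p-values measure the spread between these animals. A gene was called higher or lower in MCD where edgeR's quasi-likelihood test gave an FDR no greater than 0.01 and the log2 fold change exceeded 0.5 in size.

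Of the 9 clock genes tested, 4 were lower in MCD livers (Per2, Per3, Dbp and Nr1d1), 0 were higher and 5 were not called. Of all genes tested, 19.1% were lower, 19.2% were higher and 38.3% were called in either direction. The median log2 fold change was -0.47 over the 9 genes and -0.10 over all genes tested. The ranges of the diets overlapped for all 9, so 0 of 9 had groups without overlap, against 14.4% of all genes tested. All 4 lower calls were kept without control replicate 12. They were also kept with relative log expression factors, whereas 2 were left with upper-quartile factors and 0 with total counts alone, where Arntl was called higher instead. In bulk tissue, fewer cells of a type and less RNA per cell cannot be told apart.

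**Figure D1:**
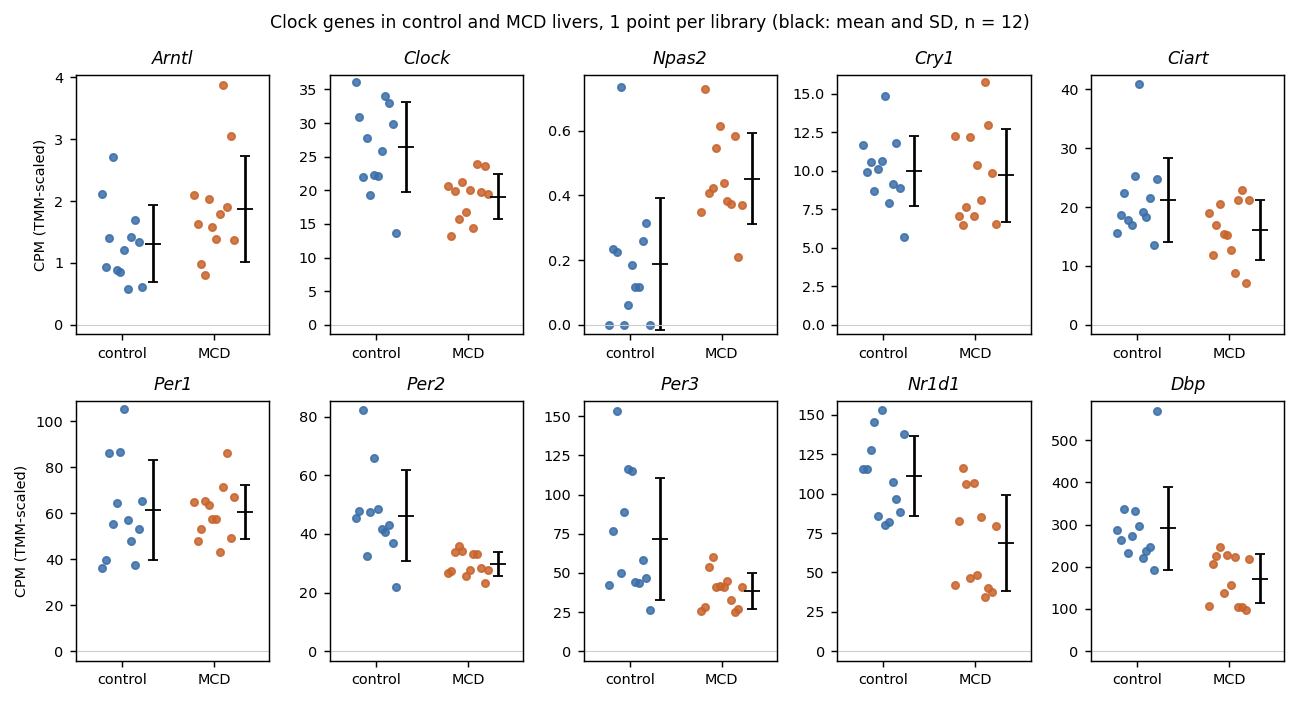
CPM (TMM-scaled) of each clock gene in 12 control and 12 MCD livers, 1 point per library, with the mean and SD in black. In Nr1d1, 6 MCD livers lie between 34.1 and 48.5 CPM and the other 6 between 79.4 and 116 CPM; the Npas2 axis ends below 1 CPM.

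Of the positive arm of the loop, Arntl and Npas2 had few counts. Arntl (ENSMUSG00000055116, chr7:113207465-113314126) had 8 to 83 counts per library. In control livers it lay between 0.582 and 2.72 CPM with a median of 1.28, and in MCD livers between 0.802 and 3.88 CPM with a median of 1.71. The 2 highest livers of all, MCD replicates 9 and 11 at 3.88 and 3.05 CPM, exceeded every control. The log2 fold change of Arntl was 0.50 (SE 0.25) with an edgeR FDR of 0.0851, not past the threshold, and its 95% interval ran from -0.02 to 1.02. With total counts alone it reached 0.85, with an edgeR FDR of 0.00596.

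Clock (ENSMUSG00000029238, chr5:76209868-76304792), which encodes the partner of ARNTL, lay between 13.7 and 36.1 CPM in control livers with a median of 26.8. In MCD livers it lay between 13.2 and 23.9 CPM with a median of 19.9. All MCD livers thus lay below the control median, and the lowest control value was that of replicate 12. The log2 fold change was -0.47 (SE 0.13) with an edgeR FDR of 0.00259, which met the FDR limit but not the fold limit. Clock passed both limits when control replicate 5 or MCD replicate 9 was left out (both -0.51), and its log2 fold change was -0.12 with total counts alone.

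Npas2 (ENSMUSG00000026077, chr1:39193731-39363236), whose protein can stand in for CLOCK, was removed by the filter on low counts. It had 0 to 13 counts in control livers, with 0 in 3 of the 12, and 4 to 20 counts in MCD livers. The mean was 0.187 CPM in control and 0.452 CPM in MCD livers, and the groups overlapped, with 1 control liver at 0.735 CPM, above every MCD liver. When the filter was lifted, its fitted log2 fold change was 1.24 with an edgeR FDR of 0.0191, not past the threshold. That value rested on few reads.

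The period genes encode the repressing partners of the cryptochromes. Per1 (ENSMUSG00000020893, chr11:69095217-69109960) lay between 36.1 and 105 CPM in control livers with a median of 56.2, and between 42.9 and 86.3 CPM in MCD livers with a median of 60.5. Its MCD values thus all fell inside the control range. The log2 fold change was -0.02 (SE 0.16) with an edgeR FDR of 0.929, and the 95% interval from -0.34 to 0.30 gives the size of difference that these livers leave unresolved. Its sign changed with the scaling and was 0.32 with total counts alone.

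Per2 (ENSMUSG00000055866, chr1:91415982-91459324) lay between 21.7 and 82.4 CPM in control livers with a median of 44.1. In MCD livers it lay between 23.3 and 36.0 CPM with a median of 28.1. The highest control was replicate 3 and the lowest replicate 12, and apart from the latter all controls lay within or above the upper part of the MCD range. Per2 fell by 0.63 on the log2 scale (SE 0.14), to 64.4% of the control level, with an edgeR FDR of 0.000334. Without control replicate 3 the log2 fold change was -0.49 with an edgeR FDR of 0.00127, just short of the fold limit.

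Per3 (ENSMUSG00000028957, chr4:151003652-151044665) is a period gene counted among the outputs of the loop rather than its core. It lay between 26.3 and 153 CPM in control livers with a median of 54.0, and between 24.9 and 60.4 CPM in MCD livers with a median of 41.0. The upper controls stood well above every MCD liver, while the lower ones shared its range. Per3 fell by 0.90 on the log2 scale (SE 0.23), to 53.6% of the control level, with an edgeR FDR of 0.0016.

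Per3 also moved with a sex-linked score, computed in each library by subtracting the mean log2 CPM of 4 Y-linked genes from that of Xist. The score ran from -8.07 to 12.5 and was above 0 in 6 livers of each diet. In control livers, Per3 lay between 49.7 and 153 CPM where the score was above 0 and between 26.3 and 58.2 CPM where it was below 0. In MCD livers the corresponding ranges were 40.9 to 60.4 and 24.9 to 41.2 CPM. As a term in the fit, the score carried a slope of 0.05 log2 units per score unit for Per3, with an edgeR FDR of 0.000113. It was the only one of the 9 at an FDR under 0.05 for the score, which 7.65% of all genes tested reached. For the other 8 clock genes tested the FDR of the score lay between 0.0794 and 0.880, and the interaction of score and diet had an FDR of 0.206 or more in all 9. With the score in the fit the same number of clock genes, 4, was lower in MCD.

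Cry1 (ENSMUSG00000020038, chr10:85131700-85185064), the cryptochrome that represses ARNTL and CLOCK late in the cycle, lay between 5.68 and 14.9 CPM in control livers. In MCD livers it lay between 6.48 and 15.8 CPM with a median of 8.98. The groups covered nearly the same range. Its log2 fold change was -0.04 (SE 0.15) with an edgeR FDR of 0.813 and a 95% interval from -0.36 to 0.27, and its sign, like that of Per1, was positive with other scalings.

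Ciart (ENSMUSG00000038550, chr3:95878503-95882251) lay between 13.6 and 40.8 CPM in control livers with a median of 18.9, and between 7.19 and 23.0 CPM in MCD livers with a median of 16.2. In 4 MCD livers it was below every control. The log2 fold change of -0.40 (SE 0.18) was not past the threshold, with an edgeR FDR of 0.0542.

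Nr1d1 (ENSMUSG00000020889, chr11:98767932-98775333) lay between 79.9 and 153 CPM in control livers with a median of 111. In MCD livers it lay between 34.1 and 116 CPM with a median of 63.9, and 7 of the 12 were below every control. It fell by 0.70 on the log2 scale (SE 0.20), to 61.8% of the control level, with an edgeR FDR of 0.0035. The call was lost without MCD replicate 5, 7, 10 or 11, each time with an edgeR FDR of 0.0109 to 0.0114 and a log2 fold change of -0.60 to -0.62. Nr1d1 shares 263 exon bases with Thra, which lies on the opposite strand, and the study names a stranded library kit without tying it to these livers or saying whether counting used strand. Thra itself had a mean of 16.3 CPM in control and 18.3 CPM in MCD livers.

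Dbp (ENSMUSG00000059824, chr7:45705088-45710203) lay between 193 and 569 CPM in control livers with a median of 268. In MCD livers it lay between 97.2 and 246 CPM with a median of 181, and 6 of the 12 were below every control. The highest value of all was control replicate 12, and the next control stood far below it. Dbp fell by 0.76 on the log2 scale (SE 0.18), to 58.9% of the control level, with an edgeR FDR of 0.000712. Without control replicate 12 it fell by 0.60, with an edgeR FDR of 0.00204. Dbp shares 539 exon bases with Sphk2 on the opposite strand, whose mean was 64.9 CPM in control and 55.4 CPM in MCD livers (log2 fold change -0.23, edgeR FDR 0.0644).

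**Figure D2:**
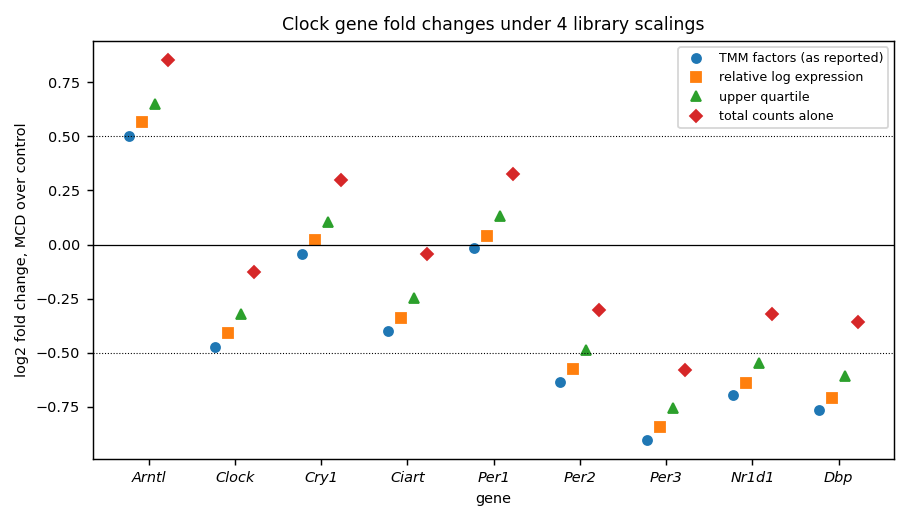
Log2 fold change, MCD over control, of the 9 tested clock genes under 4 ways of scaling the libraries, with dotted lines at the fold limit of 0.5 in either direction. Total counts alone (diamonds) shift all 9 genes upward, and Per1 and Cry1 lie on both sides of 0.

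The scaling moved all genes alike. The median log2 fold change of all genes tested was -0.10 with TMM, -0.04 with relative log expression, 0.05 with upper-quartile factors and 0.27 with total counts alone. Relative to that median, Per3 lay at -0.80 with TMM and at -0.84 with total counts. Dbp lay at -0.66 and -0.63, Nr1d1 at -0.60 and -0.59, and Per2 at -0.53 and -0.57. Arntl lay above the median, at 0.60 and 0.59. The distance of each gene from the bulk of genes was therefore nearly free of the scaling, while the call was not.

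Ratios of 2 genes within a library do not depend on the library scaling at all. They were chosen after the values had been seen and are given without a test. The log2 ratio of Dbp to Arntl was 7.88 ± 0.91 (SD, n = 12) under the control diet and 6.56 ± 1.10 (SD, n = 12) under MCD. In 5 MCD livers it was below every control. Without control replicate 12 the control mean was 7.70 and the difference between diets -1.14 in place of -1.32. The ratio of Per3 to Per1 had a mean of 0.13 in control and -0.68 in MCD livers, and that of Per2 to Per1 a mean of -0.40 in control and -1.01 in MCD livers. Nr1d1 over Cry1 went from 3.48 to 2.75, with 6 MCD livers below every control. Dbp over Clock went from a mean of 3.45 to 3.11, while its median went the other way, from 3.10 to 3.22.

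**Figure D3:**
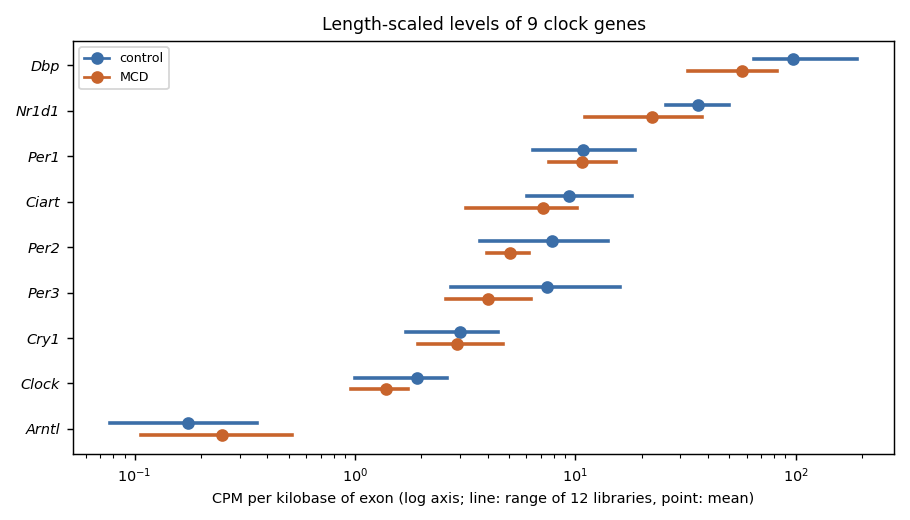
CPM per kilobase of annotated exon of 9 clock genes on a log axis, with the range over 12 libraries as a line and the mean as a point, control and MCD apart. The genes run from Arntl, with means of 0.175 (control) and 0.249 (MCD), to Dbp, with means of 97.2 and 57.2.

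Levels can be compared between genes only per length. In CPM per kilobase of exon (GENCODE release M21), the mean in control livers was highest in Dbp at 97.2, followed by Nr1d1 at 36.2, Per1 at 10.9, Ciart at 9.39, Per2 at 7.88 and Per3 at 7.48. Cry1 followed at 2.99, Clock at 1.92, Arntl at 0.175 and Npas2 at 0.0391. The ranges of the 4 genes from Per1 to Per3 overlapped, so their order among themselves was within the spread between livers. Further down, the control ranges of Per3 and Cry1, of Cry1 and Clock, and of Arntl and Npas2 overlapped too. In MCD livers the means were 57.2 for Dbp, 22.3 for Nr1d1, 10.7 for Per1, 7.12 for Ciart, 5.08 for Per2 and 4.01 for Per3, which is the same order. Transcript output and exon length used by the liver were not measured, so these are levels per annotated exon base.

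**Figure D4:**
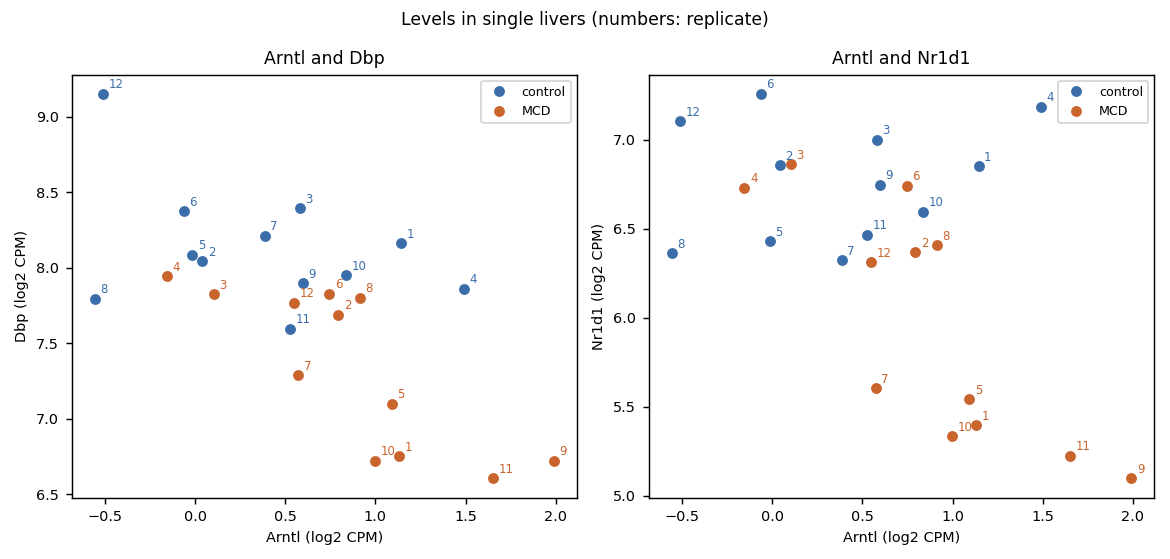
Log2 CPM of Arntl against that of Dbp (left) and of Nr1d1 (right) in single livers, numbered by replicate and coloured by diet. MCD replicates 1, 5, 7, 9, 10 and 11 form the lower set in both panels; replicates 9 and 11 have the highest Arntl.

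The MCD livers fell into separate sets. Nr1d1 was 42.0, 46.4, 48.5, 34.1, 40.3 and 37.3 CPM in MCD replicates 1, 5, 7, 9, 10 and 11. In replicates 2, 3, 4, 6, 8 and 12 it was 82.5, 116, 106, 107, 84.9 and 79.4 CPM. No MCD liver lay between 48.5 and 79.4 CPM, and the lowest control was at 79.9 CPM. The first 6 livers are called the lower set and the others the upper set. These sets were drawn from measured values and are not groups of the study, so no test was made between them.

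Dbp and Cry1, not used to draw the sets, did not overlap between them either. Both ran closely with Nr1d1 over the 24 libraries after subtraction of the diet means (r = 0.821 and -0.725). Their division is therefore not separate evidence of the sets. The share of all genes tested without overlap between the sets was not taken. Dbp ranged from 97.2 to 156 CPM in the lower set and from 206 to 246 CPM in the upper set, and only the lower set was below every control. Cry1 ran the other way, from 9.87 to 15.8 CPM in the lower set and from 6.48 to 8.09 CPM in the upper set, both inside or near the control range of 5.68 to 14.9 CPM. Clock ranged from 19.8 to 23.9 CPM in the lower and from 13.2 to 19.9 CPM in the upper set. Arntl ranged from 1.39 to 3.88 CPM in the lower and from 0.802 to 1.79 CPM in the upper set. Per1, Per2, Per3 and Ciart overlapped widely between the sets. The lower set held 2 livers with a sex-linked score above 0 and 4 below 0, and the upper set 4 above and 2 below. The labels name nothing that divides these livers, and where the division came from was not tested.

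Because of this division no correlation between clock genes was tested over all MCD livers. For 6 pairs of clock genes, Pearson's r on log2 CPM was taken within the control livers (n = 12). For the 5 pairs without Nr1d1, whose values drew the sets, it was also taken within the lower set (n = 6) and the upper set (n = 6), which makes 16 relations. Dbp was divided as Nr1d1 was, so its range within a set was narrowed too. After Benjamini-Hochberg adjustment 0 of the 16 passed 0.05 in two-sided permutation tests, and an unadjusted p under 0.05 was found for 2 values of r and 3 of rho. The third rho was that of Dbp and Ciart in control livers (rho = 0.629, permutation p = 0.0320, adjusted p = 0.203; r = 0.503, permutation p = 0.104, adjusted p = 0.282), where r was 0.436 without the 2 livers farthest from the median of Dbp. In control livers Arntl and Nr1d1 had r = 0.182 (permutation p = 0.570, adjusted p = 0.652; rho = 0.154, permutation p = 0.635, adjusted p = 0.810), and -0.319 without the 2 livers farthest from the median of Arntl.

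Arntl and Clock had r = 0.923 in the lower set (exact permutation p = 0.0139, adjusted p = 0.222; rho = 0.886, exact permutation p = 0.0333, adjusted p = 0.203), which became 0.517 without the 2 farthest livers. In the upper set their r was -0.447 (exact permutation p = 0.353, adjusted p = 0.470; rho = -0.600, exact permutation p = 0.242, adjusted p = 0.512), and -0.848 without the 2 farthest livers. In control livers it was 0.614 (permutation p = 0.0326, adjusted p = 0.261; rho = 0.615, permutation p = 0.0381, adjusted p = 0.203), 0.805 without the 2 farthest livers and 0.472 without control replicate 12.

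Arntl and Dbp had r = -0.720 in the lower set (exact permutation p = 0.106, adjusted p = 0.282; rho = -0.543, exact permutation p = 0.297, adjusted p = 0.528) and -0.733 in the upper set (exact permutation p = 0.0903, adjusted p = 0.282; rho = -0.600, exact permutation p = 0.242, adjusted p = 0.512). Without the 2 farthest livers these were -0.724 and 0.0483, so the latter rested on them. It was also 0.0407 in the upper set with total counts alone. In control livers r was -0.398 (permutation p = 0.202, adjusted p = 0.462; rho = -0.238, permutation p = 0.456, adjusted p = 0.663), -0.599 without the 2 farthest and -0.0702 without replicate 12. Differences between these correlations were not tested.

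As a description over the 12 control livers, where the scaling factor of a library enters both genes of a pair, Per2 and Per3 had r = 0.882 and Per1 and Ciart r = 0.687. Without control replicate 12 these were 0.838 and 0.683. Clock ran against Per1, with r = -0.683, or -0.851 without that library. Clock and Dbp had r = -0.763, but -0.469 without it. Of the 36 pairs of tested clock genes, 9 changed sign without that library, 3 of them with Dbp: r went from -0.324 to 0.614 for Cry1, from -0.167 to 0.857 for Per2 and from -0.0259 to 0.803 for Per3. The control livers also mixed 6 with a sex-linked score above 0 and 6 below, with Per3 medians of 102 and 43.8 CPM. These r values were not taken apart by the score.

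The spread between livers of one diet also differed from gene to gene. The pooled SD of log2 CPM within a diet was at percentile 87.8 of all genes tested for Per3, 87.5 for Arntl and 81.2 for Nr1d1, and at percentile 55.3 for Clock. In control livers the SD was 0.76 for Per3, 0.48 for Per2 and 0.50 for Per1, against 0.42, 0.20 and 0.28 in MCD livers. Nr1d1 ran the other way, with an SD of 0.33 in control and 0.66 in MCD livers, and Dbp had 0.40 and 0.53. Without control replicate 12 the control SD of Dbp was 0.25 and that of Per2 was 0.37. These spreads take in the division of the MCD livers in Nr1d1 and the difference of Per3 with the sex-linked score. The difference in spread between the diets was not tested.

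The other genes of the clock were taken from a list of 20 components, of which 19 were tested. In MCD livers 2 were higher, 7 were lower and 10 were not called, where 19.2% and 19.1% of all genes tested were higher and lower. The median log2 fold change of the 19 was -0.27. The groups did not overlap in 4 of them, against 14.4% of all genes. With total counts alone 2 were higher and 3 lower.

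**Figure D5:**
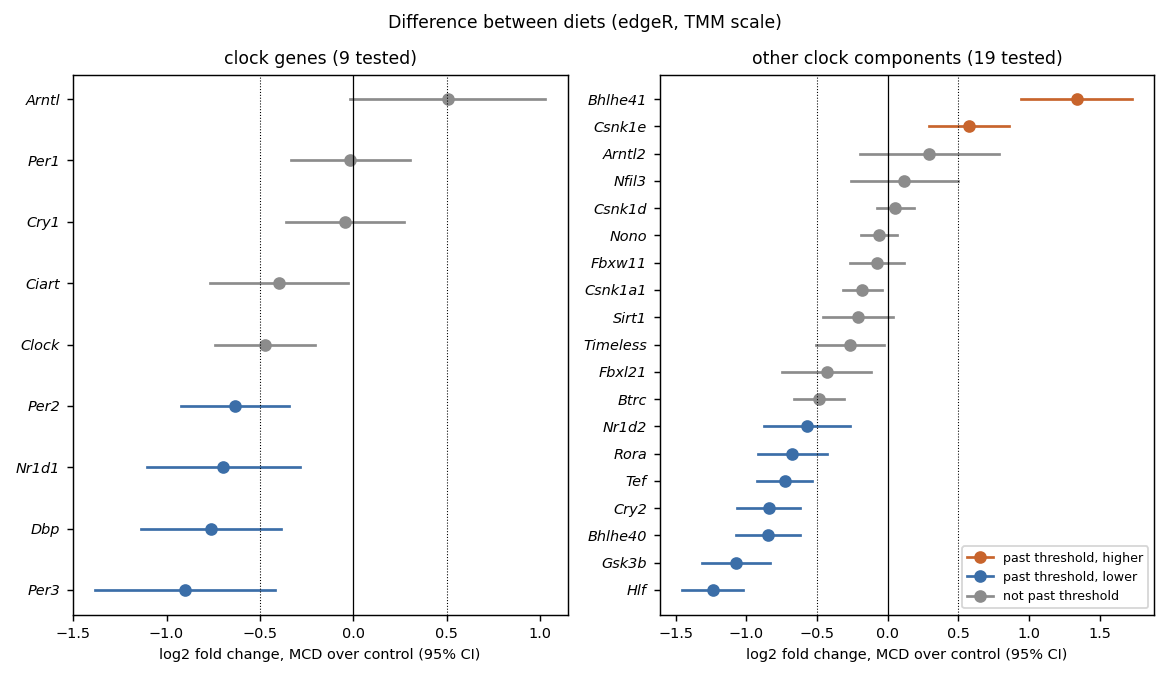
Log2 fold change, MCD over control, with its 95% interval from edgeR, for the 9 tested clock genes (left) and 19 other clock components (right). Blue and orange mark genes past the threshold, and Hlf (-1.24) and Bhlhe41 (1.34) lie at the ends of the right panel.

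The relatives of Dbp were lower as well. Hlf, another D-box factor of the PAR bZIP family, lay between 60.2 and 136 CPM in control and between 33.5 and 47.1 CPM in MCD livers, without overlap. It fell by 1.24 on the log2 scale (SE 0.11, edgeR FDR 1.85e-10). Tef, the third of that family, lay between 229 and 382 CPM in control and between 141 and 217 CPM in MCD livers. It fell by 0.73 on the log2 scale (SE 0.09, edgeR FDR 2.2e-07). Nfil3, which represses through the same D-box, was not called (log2 fold change 0.12, edgeR FDR 0.599).

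Cry2, the paralog of Cry1, lay between 42.9 and 99.6 CPM in control and between 32.99 and 41.4 CPM in MCD livers, again without overlap. It fell by 0.84 (SE 0.11, edgeR FDR 2.28e-07), where Cry1 was not called; the difference between these fold changes was not tested. Receptors of the second loop were lower as well. Nr1d2, the paralog of Nr1d1, fell by 0.57 (SE 0.15, edgeR FDR 0.00147), Rora fell by 0.67 on the log2 scale, and Rorb was not tested. The Nr1d2 call was lost without MCD replicate 2 (-0.48), with upper-quartile factors (-0.42) and with total counts alone (-0.23). It was also lost where each library had to hold 10 counts (-0.49) and with the replicate number as a block (-0.56). With total counts alone the calls of Cry2 (-0.49), Rora (-0.34) and Tef (-0.37) were lost too.

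The E-box repressors Bhlhe40 and Bhlhe41 moved in opposite directions. Bhlhe41 lay between 2.19 and 12.9 CPM in control and between 14.1 and 21.97 CPM in MCD livers, and rose by 1.34 (SE 0.19, edgeR FDR 1.02e-06). Bhlhe40 lay between 105 and 242 CPM in control and between 74.1 and 123 CPM in MCD livers, and fell by 0.85 (SE 0.11, edgeR FDR 2.03e-07). Bhlhe41 shares 1280 exon bases with a gene model on the opposite strand, so its reads cannot be assigned without strand. Cry2, Rora, Tef, Bhlhe40 and Csnk1e share 82 to 295 exon bases with such models. Of the kinases that phosphorylate clock proteins, Csnk1e rose by 0.57 (SE 0.14, edgeR FDR 0.000824) and Gsk3b fell by 1.07 (SE 0.12, edgeR FDR 1.3e-08). The tested components not yet named were not called either: Arntl2, Csnk1d, Csnk1a1, Fbxl21, Fbxw11, Timeless, Sirt1, Nono and Btrc. Of these, Btrc (log2 fold change -0.49, edgeR FDR 1.76e-05) lay just short of the fold limit.

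Genes known to cycle in liver under the clock were followed with a list of 19 rhythmic outputs, all tested. Of these 2 were higher and 10 lower, 7 were not called, and the median log2 fold change was -0.60. Of all genes tested 19.2% were higher and 19.1% lower. The groups overlapped in all 19, so 0 of 19 were without overlap, against 14.4% of all genes. Ppara, the receptor that governs fatty acid oxidation, fell by 1.76 (SE 0.20, edgeR FDR 2.51e-08). Rgs16, a regulator of G protein signalling, fell by 1.59, and Cyp7a1, the rate-limiting enzyme of bile acid synthesis, fell by 1.27. Wee1, a cell cycle kinase with E-box control, fell by 0.83, and Usp2, a rhythmic deubiquitinase, fell by 0.62. Elovl3, a fatty acid elongase, fell by 2.58 (SE 0.76, edgeR FDR 0.00465), with control livers spread from 0.396 to 106 CPM. Lpin1, Nr1i3, Upp2 and Insig2 were lower too. Cdkn1a, an inhibitor of the cell cycle, rose by 2.37, and Noct, a rhythmic phosphatase, by 0.99 (SE 0.31, edgeR FDR 0.007).

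Signals known to entrain the liver clock were read from 4 further lists. Of all genes tested 38.3% were called in either direction, and the shares called here were 5 of 10 fasting and feeding genes, 1 of 8 glucocorticoid targets, 2 of 2 cold-inducible genes and 5 of 10 heat shock genes. Of the 10 fasting and feeding genes, 3 were higher (Igfbp1, Pdk4 and Fgf21), 2 lower (Srebf1 and Cpt1a) and 5 not called. Those not called were Angptl4 (log2 fold change 0.27), Pck1 (0.09), Irs2 (-0.29), Ppargc1a (-0.29) and G6pc (-0.52). Srebf1, a lipogenic transcription factor, fell by 1.598 (SE 0.20, edgeR FDR 1.45e-07), and Igfbp1 rose by 2.24 (SE 0.40, edgeR FDR 2.66e-05). Of the 8 glucocorticoid targets, Sgk1 was higher (log2 fold change 1.04) and 7 were not called. Of the cold-inducible RNA-binding genes, Rbm3 rose by 0.996 (SE 0.10, edgeR FDR 4.77e-09) and Cirbp by 0.53 (SE 0.11, edgeR FDR 0.000219). Of the 10 heat shock genes, Hspa1a and Hspa1b were higher and Hspd1, Dnaja1 and Hsph1 lower. Hspa1a and Hspa1b are near-identical copies, so their separate values are uncertain. The part of these signals in the levels of the clock genes was not tested.

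Markers of several cell types differed between the diets, against a background of 19.2% of all genes higher and 19.1% lower. Summed levels of 8 hepatocyte markers lay between 78064 and 186510 CPM in control and between 60938 and 86910 CPM in MCD livers, and 3 of them, Alb among them, were lower. Macrophage markers summed to 228 to 607 CPM in control and 1249 to 2613 CPM in MCD livers, with 7 of 9 higher and 1 lower. Stellate cell and fibroblast markers went from 220 to 633 CPM up to 820 to 1421 CPM (7 of 9 higher, 1 lower), and cholangiocyte markers from 30.1 to 146 CPM up to 453 to 906 CPM (6 of 6 higher). Endothelial markers went from 198 to 293 CPM down to 118 to 183 CPM (5 of 7 lower). Lymphocyte markers went from 3.94 to 12.4 CPM up to 11.1 to 24.8 CPM (4 of 8 higher), and proliferation markers from 3.67 to 14.5 CPM up to 19.4 to 32.3 CPM (5 of 5 higher). Single genes weighed heavily in some of these sums. The mean of Alb was 79836 CPM in control and 51883 CPM in MCD livers. That of Lyz2, a macrophage marker, was 83.4 and 1142 CPM, and that of Spp1, a cholangiocyte marker, 58.7 and 593 CPM. The part of these cell types in the fold changes of the clock genes was not tested.

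The genes whose levels ran most like those of 3 clock genes were ranked over 24 libraries among 13103 genes with a mean of at least 1 CPM, after subtraction of the diet means of log2 CPM, the divided MCD livers included. For Arntl the highest r belonged to Pbx3 (0.730), Tab2 (0.676), Irf9 (0.675), Desi2 (0.673) and Clpx (0.670), and the lowest to Etohd2 (-0.704) and Hexdc (-0.698). Gpr12, Tubgcp2 and Abhd16a followed. For Per1 the highest included Irf2bp2 (0.843), Dusp2 (0.810), Arl4d (0.794) and Arrdc2 (0.741), and the lowest Atp8b4 (-0.768) and Kcnj2 (-0.738), then 5730409E04Rik, 1700052K11Rik and Mkks. No p is given, since these were the extremes of many genes.

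For Dbp the ranking named Gm15318, Acy3, Nr1d1, Fndc4 and Hdac11 at the top and Desi2, Cntrl, Dusp3, Pros1 and Il17rb at the bottom. Since the MCD livers were divided in Dbp, r is given for the control livers alone: 0.839 for Gm15318, 0.930 for Acy3, 0.883 for Fndc4 and -0.883 for Cntrl. Without control replicate 12 these were 0.849, 0.789, 0.764 and -0.734. Nr1d1 had r = 0.497 with Dbp in control livers, Desi2 -0.831, and without replicate 12 Desi2 had -0.431.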

How the data were processed

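Poly(A) RNA from whole liver, extracted with Trizol, was sequenced in 24 libraries. The deposited values are raw read counts per Ensembl gene, not normalized by the authors. The submitters' processing notes name bcl2fastq, STAR 2.7.3a and the build mm10. The study's methods name a stranded kit (Illumina TruSeq Stranded mRNA), the exon quantification pipeline and PISCES, the analysis with human references. The program, annotation and use of strand for the mouse counts are not given in the sources used here. The table held 56205 rows, 28652 of them 0 in every library, and 0 columns were left unused. GENCODE M21 (GRCm38) named 51745 rows and gave coordinates and exons. No 2 libraries were identical. The clock genes and all lists were chosen with earlier results of these data known.

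Genes were kept with filterByExpr by diet (14109) and scaled with TMM. In R 4.3.3, edgeR 4.0.16 (glmQLFit, glmQLFTest) compared MCD with control over 24 libraries without covariate, with Benjamini-Hochberg FDR; the biological coefficient of variation was 26.8%. Log2 CPM used a prior count of 2. Alternatives were other scalings and filters, DESeq2 1.42.0, limma-voom (limma 3.58.1), a replicate block, the sex-linked score (Xist against Ddx3y, Eif2s3y, Kdm5d and Uty), other limits, and each library left out. On simulated counts of 14109 genes for this comparison with 200 changed, edgeR recovered 178 with 1 false call. In the livers themselves 5400 genes were called, and recovery with that many genes changed was not tested. Correlations used two-sided permutation tests, exact for sets of 6 and with 1e+05 resamples otherwise (numpy 2.4.6, scipy 1.17.1, Python 3.11.15). They had been planned over all 12 MCD libraries and were made within sets because of the gap in Nr1d1, seen in the data, leaving out Nr1d1 there. Figures were drawn with matplotlib 3.10.9. Named genes were the 10 clock genes, list members past the threshold or needed to account for a list, and the 5 genes most like and 5 least like Arntl, Dbp and Per1. The promoter of Per2 was not used here. Some genes of the lists and rankings are not reported here and are left out of the list counts.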

Additional observations from a re-analysis of the deposited data

How the results depend on the processing

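Scaling decided the calls. With upper-quartile factors 2 clock genes were lower (1710 of all genes lower); with total counts alone 1 clock gene was higher and 0 lower, with 3 other clock components lower and, over all genes, 4539 higher and 848 lower. A log2 limit of 1 left 0 clock genes lower, 1 other component higher and 2 lower, and 686 genes lower over all. When the fold limit was dropped and FDR 0.05 applied, 5221 genes, 5 clock genes and 11 other components were lower, Clock being added. Where each sample had to hold 10 counts or more, 1801 genes were higher. Without filter, and with DESeq2, limma-voom or relative log expression factors, 4 clock genes were lower.

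With a replicate block 4 clock genes were lower, Dbp at -0.79, Nr1d1 at -0.80, Per2 at -0.58 and Per3 at -0.79, against 2781 higher and 2430 lower genes over all. Pairing by shared numbers was not established: 8 of 12 correlations of deviations exceeded 0.1, from -0.28 to 0.35 with a median of 0.23. The block ended none of the 4 calls but ended that of Nr1d2 (-0.56, edgeR FDR 0.0125), leaving 6 other components lower.

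Leaving out 1 library gave 3 to 5 lower clock genes, 6 to 8 lower other components, and 2701 to 3052 higher and 2228 to 2812 lower genes over all. Genes near 0 changed sign, none of them called. Per1 was 0.0387 with relative log expression factors and with DESeq2, 0.0378 with limma-voom, 0.131 with upper-quartile factors, 0.324 with total counts, 0.0183 without filter, 0.0629 with at least 10 counts, 0.0341 with the replicate block and 0.0111 with the score. It was between -0.0705 and 0.0769 with 1 library left out. Cry1 was 0.0205 with relative log expression factors, 0.0208 with DESeq2, 0.106 with upper-quartile factors, 0.300 with total counts and 0.0375 with at least 10 counts. It was between -0.128 and 0.0422 with 1 library left out. With upper-quartile factors, total counts and at least 10 counts, Fbxw11 was 0.0704, 0.265 and 0.00414, and Nono 0.0892, 0.299 and 0.0212. Nono was between -0.0946 and 0.00645 with 1 library left out, the latter without control replicate 3. With total counts, Csnk1a1 was 0.172, Timeless 0.0799 and Sirt1 0.141. Of the 16 correlations, 0 passed the adjustment with total counts or, added after the data had been seen, without control replicate 12. Without the 2 farthest livers the 6 in control livers did not pass either; the sets then held 4 livers each, too few for the exact permutation test to pass, so their p-values say nothing there. Arntl had 8 to 83 and Npas2 0 to 20 counts per library, so their relative counting error was wide. Neither had a value at the filter of 10 counts. The cause of these changes was not tested.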
